A study of Mus musculus with 5 samples.

Results

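The 10 G protein alpha subunit genes described here are Gnai1, Gnai2, Gnai3, Gnao1, Gnaz, Gnas, Gnaq, Gna11, Gna12 and Gna13, chosen by gene symbol from the 32285 genes of the deposited single-cell matrices. Their transcripts were counted in 5 libraries of mouse intestine, 1 each of duodenum, jejunum, ileum, colon and rectum. Before capture on the 10x Genomics platform, live cells had been sorted as those that did not take up propidium iodide. The title of the study concerns Gnai1-positive stromal cells and the differentiation of goblet and Paneth cells. The labels give tissue and the kinds of cell expected, namely epithelial, mesenchymal and immune cells. Genotype, strain, age, treatment and the number of animals are not given in the sources used here, and the spatial libraries of the study's design text were not analysed here.

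Heterotrimeric G proteins couple seven-helix receptors on the cell surface to enzymes and channels inside the cell. The alpha subunit binds GTP when a receptor is activated, separates from the beta and gamma subunits, and returns to rest when it hydrolyses that GTP, a step that RGS proteins accelerate. The Gi/o/z group (Gnai1, Gnai2, Gnai3, Gnao1 and Gnaz) restrains adenylyl cyclase, Gs (Gnas) stimulates it, the Gq/11 group (Gnaq and Gna11) activates phospholipase C beta, and the G12/13 group (Gna12 and Gna13) activates RhoA through RGS-type exchange factors. In the gut these routes carry signals of hormones, neurotransmitters, bile acids, prostaglandins and chemokines that bear on secretion, motility, epithelial renewal and leukocyte traffic.

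Of 16535 deposited barcodes, 11922 cells were used, with 1829 to 3196 cells per library and a median of 7037.5 UMIs (unique molecular identifiers, which count captured transcript molecules) per cell. They held 274798 UMIs of the 10 genes among 210176116 UMIs in all. No 2 libraries shared more than 3 cell barcodes. Clusters were named from marker lists, and every name below carries "-like" because it rests on transcripts alone. There were 4914 epithelial-like, 575 stromal-like, 6302 immune-like and 131 endothelial-like cells. The stromal-like cells were few in the small intestine: the libraries held 51 from duodenum, 15 from jejunum, 27 from ileum, 188 from colon and 294 from rectum. Levels are UMIs of a gene per 1000000 UMIs (CPM) of all cells of a class summed, and were not divided by transcript length. A share is the percentage that a gene takes of the UMIs of the 10 members. Intervals are 95% (exact Poisson for CPM, exact Clopper-Pearson for shares) and cover counting error only. Each segment is 1 library, so no difference between segments was tested. Tests between classes treat the 5 libraries as samples. The spread behind their p-values is therefore that between segments, and the libraries are not stated to come from separate animals.

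The start regions of Gnai1, Gna11 and Gnao1, 3 members whose levels differed between classes and that have a window in the promoter table, are printed here as context, from RefSeq on GRCm38.p6, each from 250 bases before to 50 bases after the annotated start. Gnai1, the stromal member, has chr5:18360364-18360663 on the minus strand. Gna11, the absorptive member, has chr10:81545113-81545412 on the minus strand. Gnao1, the enteroendocrine and stromal member, has chr8:93810588-93810887 on the plus strand. Capitals mark a GC box (GGGCGG or its reverse complement CCGCCC) or a CCAAT box (or its reverse complement ATTGG).
Gnai1: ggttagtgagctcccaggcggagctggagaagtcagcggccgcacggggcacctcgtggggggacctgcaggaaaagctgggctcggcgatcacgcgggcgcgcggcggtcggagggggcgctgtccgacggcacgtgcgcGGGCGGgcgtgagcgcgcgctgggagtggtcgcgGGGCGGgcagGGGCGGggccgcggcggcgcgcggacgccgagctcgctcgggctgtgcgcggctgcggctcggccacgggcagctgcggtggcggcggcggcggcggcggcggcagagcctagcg
Gna11: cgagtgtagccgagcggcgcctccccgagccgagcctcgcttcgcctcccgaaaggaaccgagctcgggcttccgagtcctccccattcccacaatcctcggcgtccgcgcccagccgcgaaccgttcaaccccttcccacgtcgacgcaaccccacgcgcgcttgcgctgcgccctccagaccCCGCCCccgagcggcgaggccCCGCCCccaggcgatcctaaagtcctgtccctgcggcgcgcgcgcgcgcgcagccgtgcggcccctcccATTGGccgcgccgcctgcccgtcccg
Gnao1: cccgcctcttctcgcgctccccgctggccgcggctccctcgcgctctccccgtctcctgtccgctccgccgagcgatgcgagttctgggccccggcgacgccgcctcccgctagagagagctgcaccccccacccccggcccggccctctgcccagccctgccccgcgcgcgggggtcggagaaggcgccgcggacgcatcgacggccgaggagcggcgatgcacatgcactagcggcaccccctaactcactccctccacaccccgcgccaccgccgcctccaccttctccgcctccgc

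These windows are rich in CpG. The Gnai1 window holds 53 CpG dinucleotides, more than 99.5% of the 32851 promoters in the table, whose median is 7. The Gna11 window holds 48 and the Gnao1 window 42, above 98.8% and 97% of all promoters. RefSeq entries were matched for 8 of the 10 members, with 11 start windows because Gnas has 4; Gnai2 and Gnaz were not matched. The other 8 windows hold 16 to 40 CpG. The motifs named next were searched on both strands, and none contains another. The GC box was found 3 times in Gnai1, 2 times in Gna11 and not in Gnao1, and 35.7% of all promoters hold it. The CCAAT box was found 1 time in Gna11, and 37.4% of all promoters hold it. The TATA box motif (TATAAA, in 13.6% of all promoters) matched in 3 of the 4 Gnas windows and in no other member. Each match was the reverse complement TTTATA, so the motif lies on the strand opposite to the gene. The windows that start at chr2:174327499 and chr2:174327518 overlap and share the same site. The AP-1 motif TGANTCA (7.81% of all promoters) and the cyclic AMP response element TGACGTCA (1.79%) had no match in any of the 11 windows.

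Gnas, which encodes Gs alpha, took the largest share of the members' UMIs in most classes. Among the 72 class-by-library groups with at least 10 cells, Gnas led in 53, Gnai2 in 14 and Gna11 in 5. The interval of the leading gene lay apart from that of the next gene in 47, 11 and 5 of these groups. Gnas led in all 13 stromal-like groups. These include 14 colonic cells of an unnamed stromal class, 28 cells led by the immunoglobulin genes Ighg1, Igkv17-127 and Iglc1. That class stayed in the stromal-like sums and tests, where it held 433634 of the 1695140 stromal-like UMIs of colon. In the 24 epithelial-like groups Gnas led in 19 and Gna11 in 5, and those 5 were small intestinal cells: absorptive-like cells of duodenum, jejunum and ileum, and an unnamed epithelial class of duodenum and jejunum. In the 30 immune-like groups Gnas led in 18 and Gnai2 in 12, and 10 of those 12 were macrophage-like and dendritic-like cells of the 5 libraries. The other 2 were B-like cells of ileum, where Gnai2 had 40.0% and Gnas 39.7% with overlapping intervals, and T-like cells of rectum, where Gnai2 had 38.8% and Gnas 30.3%.

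**Figure D1:**
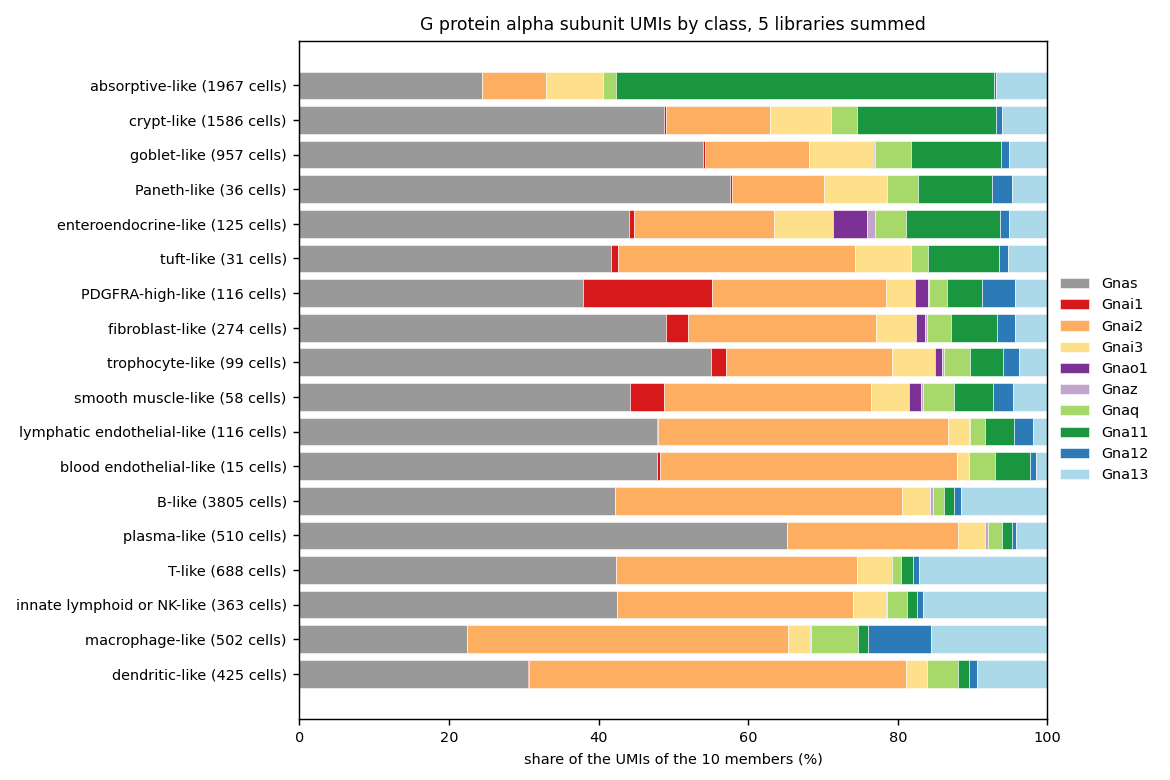
Share of the UMIs of the 10 members (%, horizontal axis) taken by each member in each class, with the 5 libraries summed. Gna11 takes 50.5% in absorptive-like cells, Gnai2 takes 50.5% in dendritic-like cells, and Gnas takes 65.2% in plasma-like cells.

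Summed over libraries, the classes fell into a few patterns. In absorptive-like cells Gna11 held 50.5% and Gnas 24.4%. In secretory and crypt cells Gnas led, with 48.8% in crypt-like, 53.9% in goblet-like, 57.6% in Paneth-like, 44.1% in enteroendocrine-like and 41.7% in tuft-like cells. PDGFRA-high-like fibroblasts, the stromal cells that lie beneath the epithelium and secrete BMP and WNT ligands, had the most even spread among the stromal-like classes. They gave 37.9% to Gnas, 23.2% to Gnai2 and 17.2% to Gnai1. As a group the Gi/o/z genes there reached 46.2%, against 34.9% in fibroblast-like, 31.2% in trophocyte-like (a fibroblast class marked by Grem1 and C3) and 39.2% in smooth muscle-like cells. Gnai2 held 50.5% in dendritic-like and 42.9% in macrophage-like cells. B-like cells were nearly even, with 42.2% for Gnas and 38.3% for Gnai2. The G12/13 pair was largest in macrophage-like cells (23.9%) and reached 17.9% in T-like and 17.5% in innate lymphoid or NK-like cells, and was between 4.67% and 12.4% in plasma-like, dendritic-like and B-like cells.

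**Figure D2:**
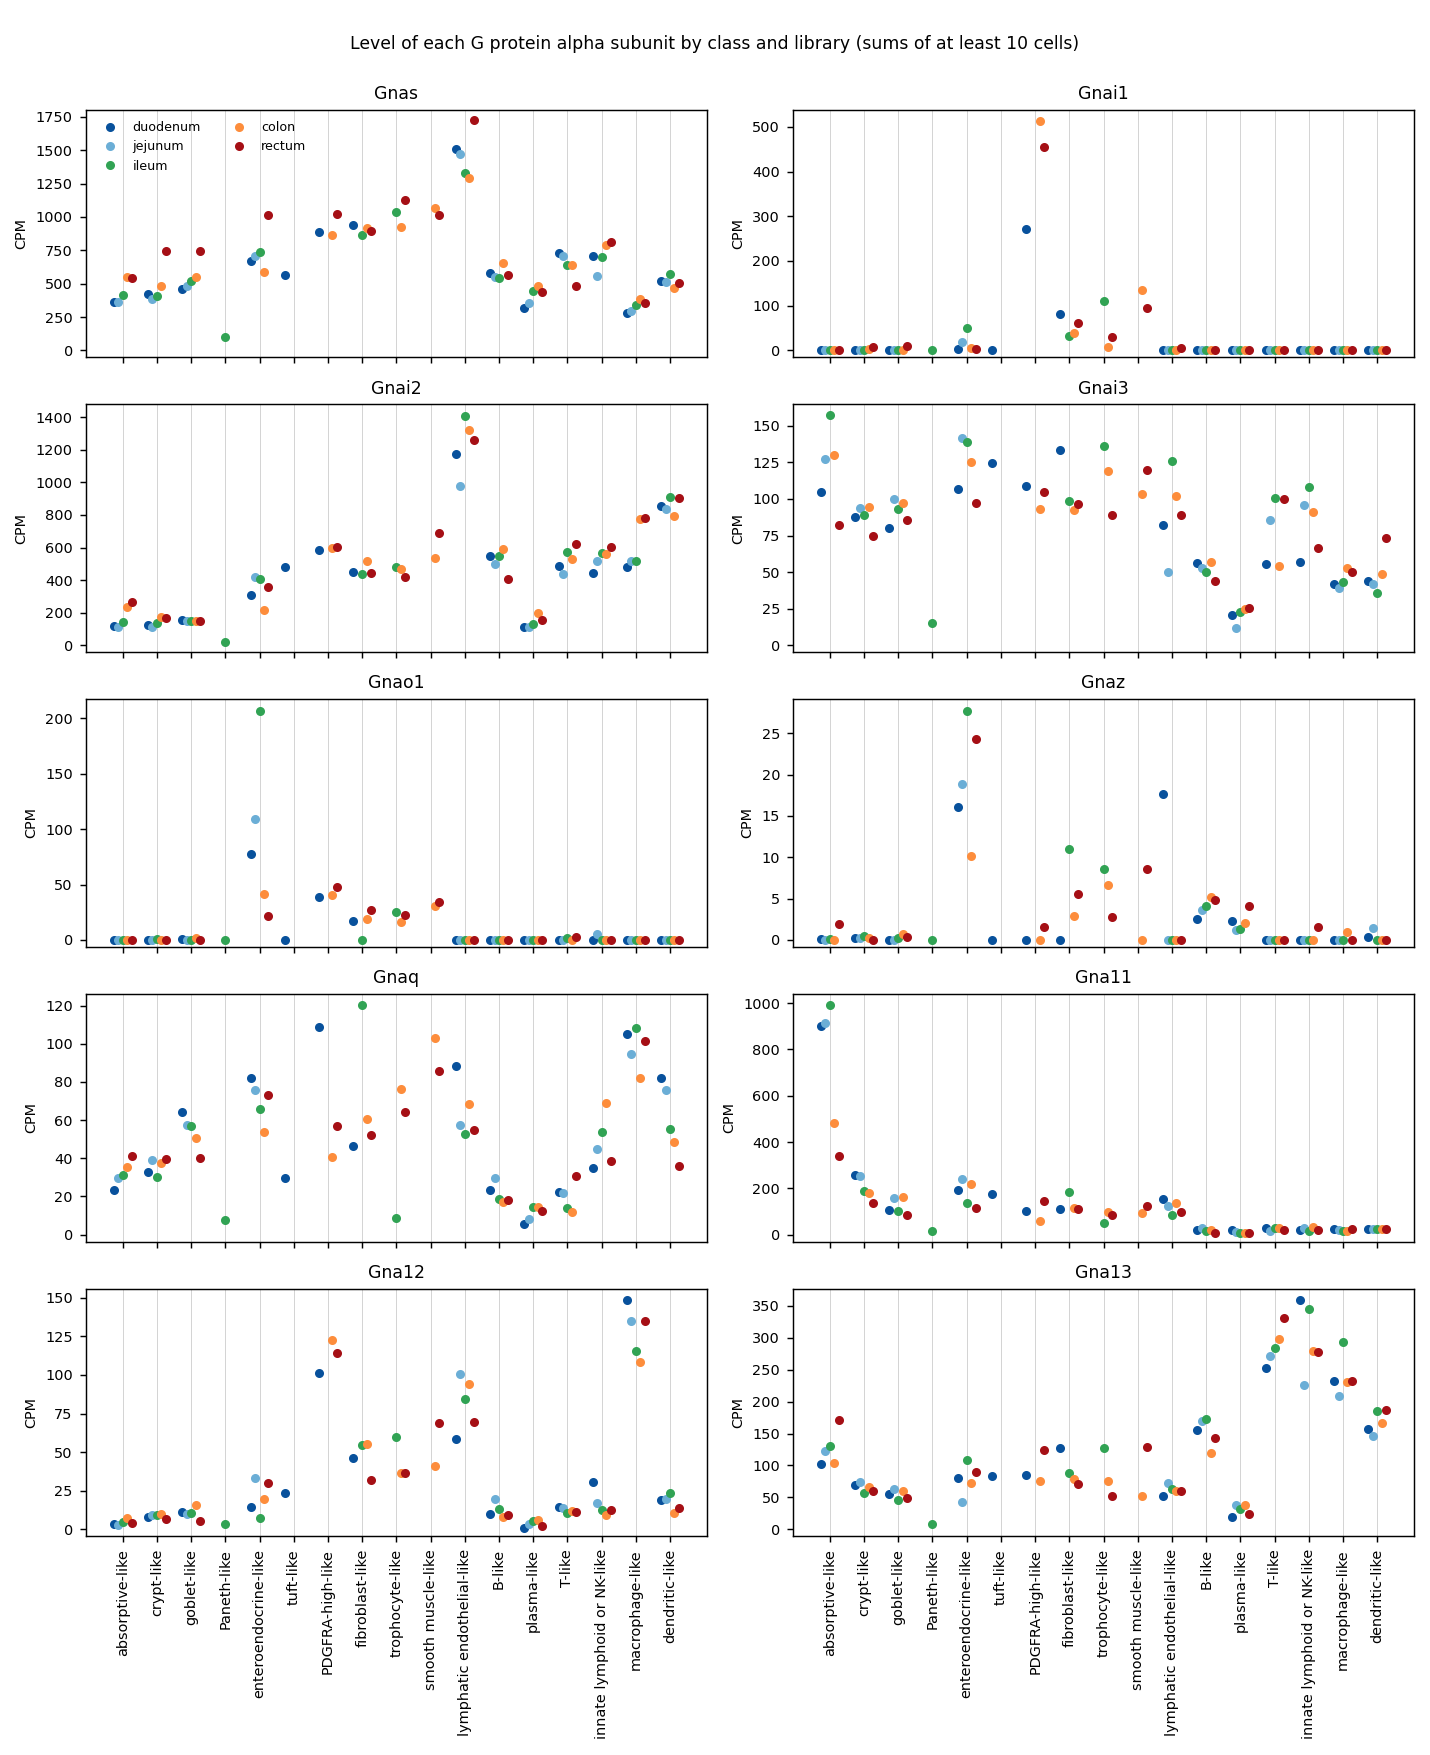
CPM of each member (linear axis) in each class, 1 point per library with at least 10 cells. Gna11 separates absorptive-like cells (341 to 990.5 CPM) from all immune-like classes, and Gnai1 separates PDGFRA-high-like cells (272 to 513 CPM in the 3 libraries with at least 10 such cells) from all epithelial-like and immune-like classes.

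The 3 compartments were compared in 1 edgeR quasi-likelihood fit, so each pair of contrasts shares the sums of a compartment and their values stand side by side. All 10 members passed the filter on low counts. Stromal-like against epithelial-like cells gave 8 of 10 members called at a Benjamini-Hochberg adjusted p under 0.05, 7 higher and 1 lower, where 60.6% of the 13888 genes tested were called (27.7% higher and 32.8% lower). Stromal-like against immune-like cells gave 8 of 10, 6 higher and 2 lower, where 53.5% of genes were called (23.5% higher and 30% lower). Epithelial-like against immune-like cells gave 8 of 10, 4 higher and 4 lower, where 63.3% of genes were called (32.1% higher and 31.2% lower). With shares this large among all genes, the counts say little about the members as a set, and the sizes and libraries of each gene follow. The median log2 fold of the 10 members was 0.86, 0.48 and -0.17 in these contrasts, beside -0.14, -0.19 and 0.01 over all genes tested.

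**Figure D3:**
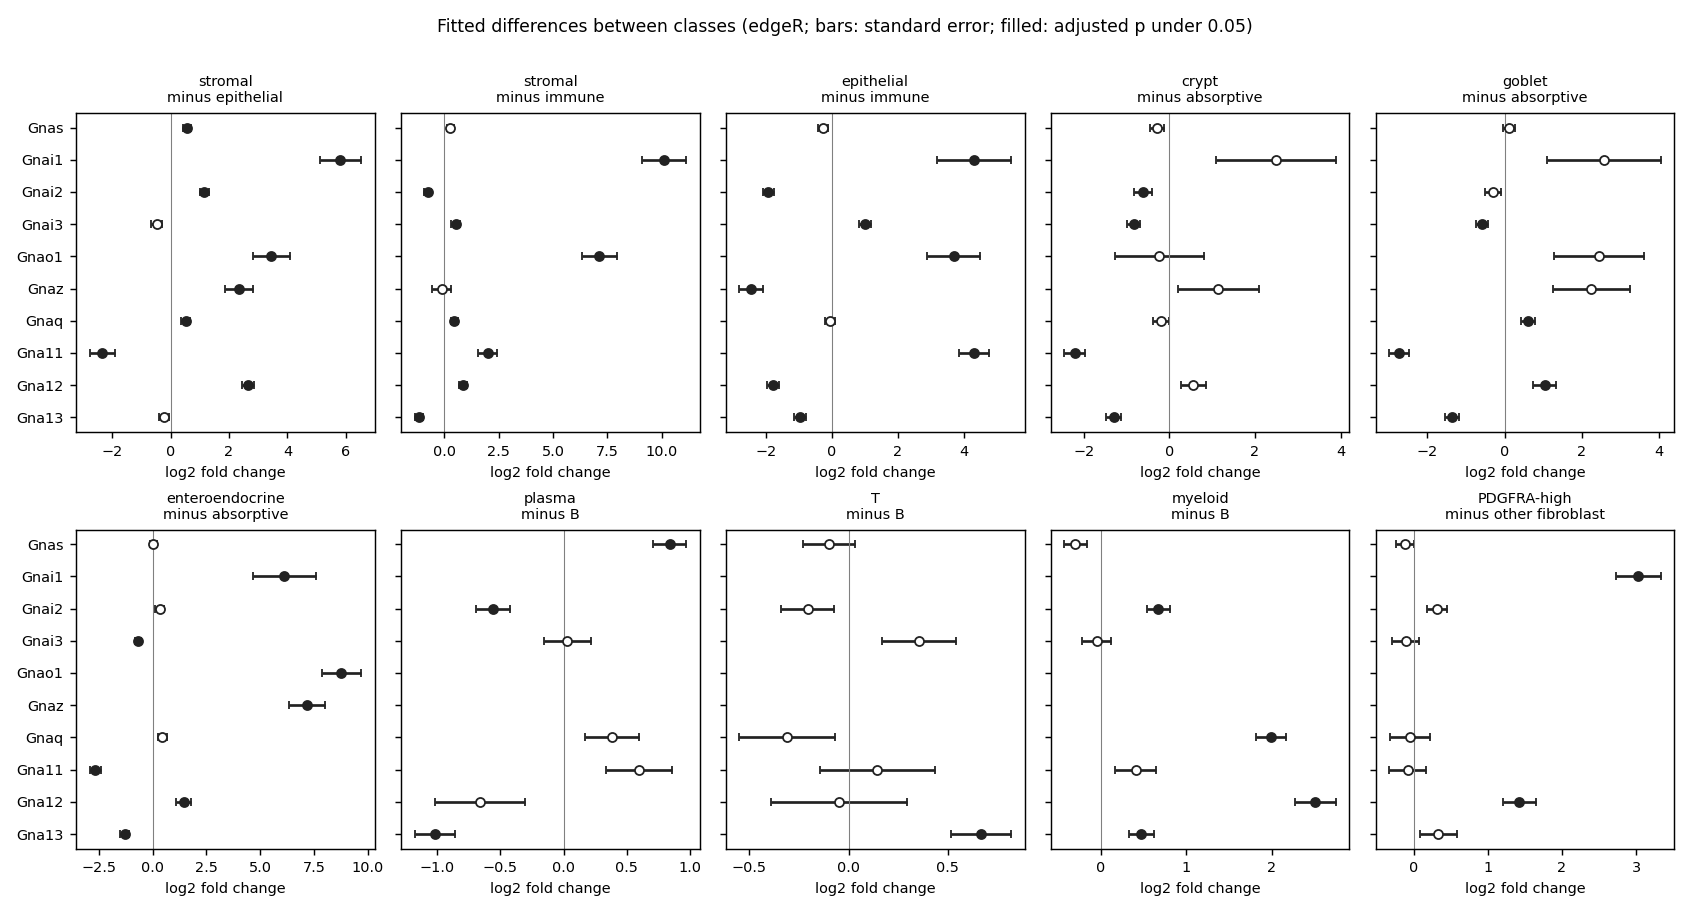
Log2 fold of each member in each contrast from edgeR's quasi-likelihood fit, with bars of 1 standard error; filled points passed the adjusted threshold of 0.05. Gnai1 lies at 5.82 in stromal-like minus epithelial-like cells, Gna11 at 4.32 in epithelial-like minus immune-like cells, and Gnao1 at 8.77 in enteroendocrine-like minus absorptive-like cells.

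Gnai1, 1 of the 3 inhibitory Gi alpha genes (chromosome 5, 18265135 to 18360413 on GRCm38.p6), was the most stromal of the members. Stromal-like cells had 145 CPM in duodenum, 32.4 in jejunum, 96.1 in ileum, 79.0 in colon and 149 in rectum. Epithelial-like cells had 0.12, 0.16, 0.89, 2.19 and 8.27 CPM, and immune-like cells had at most 0.17 CPM in any library. The stromal-like and other ranges did not overlap: the lowest stromal-like library, jejunum with 15 cells, was above the highest epithelial-like library, rectum. The stromal-like mean was 100.4 ± 48.7 CPM (SD, n = 5) against 2.33 ± 3.43 in epithelial-like cells. By edgeR's quasi-likelihood test that is a log2 fold of 5.82 (SE 0.71, Benjamini-Hochberg adjusted p = 2.0e-05), and 5.15 without duodenum to 6.59 without rectum. Against immune-like cells, whose mean was 0.077 ± 0.077 CPM, the log2 fold was 10.12 (SE 1.004, edgeR adjusted p = 6.2e-06). The immune-like level rests on 3 UMIs in 6302 cells, so the size of that fold depends on few molecules. Epithelial-like cells were above immune-like cells by a log2 fold of 4.31 (SE 1.13, edgeR adjusted p = 0.0053), which fell to 2.72 without rectum.

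Fibroblast markers bear on these low levels. The 7 genes of the fibroblast marker list summed to 0.543 to 5.22 CPM in epithelial-like cells, against 17725 to 34061 CPM in stromal-like cells, and were highest in colon and rectum, as Gnai1 was. In immune-like cells the same list summed to 1.99 to 2.30 CPM in the small intestinal libraries and to 44.01 and 33.5 CPM in colon and rectum, where Gnai1 was 0.17 and 0 CPM. The part of stray stromal transcripts in the epithelial Gnai1 level was not tested.

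Within the stromal-like cells Gnai1 was highest in PDGFRA-high-like cells, with 272 CPM from 15 duodenal cells, 513 from 24 colonic cells and 456 from 76 rectal cells. Jejunum had no such cell and ileum had 1. Smooth muscle-like cells followed with 113 CPM in duodenum (9 cells), 94.6 in jejunum (2 cells), 134 in colon and 94.4 in rectum. Fibroblast-like cells had 81.4, 49.6, 32.8, 39.1 and 60.8 CPM from duodenum to rectum, and trophocyte-like cells had 95.8, 0, 111, 6.62 and 30.7 CPM. Of the 99 trophocyte-like cells, 46 lay in a cluster led by Igfbp6 and Apod whose 10 leading genes hold 2 genes of the fibroblast list and 1 of the trophocyte list. PDGFRA-high-like cells were above every other stromal-like class in each of the 3 libraries, whereas the ranges of smooth muscle-like, fibroblast-like and trophocyte-like cells overlapped.

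PDGFRA-high-like cells were compared with the other fibroblasts (fibroblast-like and trophocyte-like cells together) over duodenum, colon and rectum. Of the members, 8 passed the filter, and 2 were called, both higher, Gnai1 and Gna12, where 23.3% of the 4331 genes tested were called (9.4% higher and 13.9% lower). Gnai1 averaged 413 ± 126 CPM (SD, n = 3) against 56.3 ± 28.3, a log2 fold of 3.03 (SE 0.30, edgeR adjusted p = 3.7e-05), with the same direction in 3 of 3 libraries. The fold was 2.62 without colon and 3.35 without duodenum. Gna12, which couples receptors to RhoA, averaged 113 ± 10.7 against 42.4 ± 8.49 CPM, a log2 fold of 1.42 (SE 0.22, edgeR adjusted p = 8.5e-04), again in 3 of 3. With DESeq2 the Gna12 call was lost (log2 fold 1.34). Gnao1 and Gnaz were not tested here: Gnao1 averaged 42.4 ± 4.60 against 18.8 ± 6.95 CPM, and Gnaz 0.529 ± 0.916 against 4.36 ± 0.530 CPM. The fibroblast-like class includes a cluster of 54 cells with the pericyte marker Rgs5 and no fibroblast marker among its 10 leading genes.

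The PDGFRA-high-like class had 2 clusters, between which the intervals of Gnai1, Gnao1, Gna12 and Gna13 lay apart. The first, 72 cells led by Ogn, Rbp4, Procr and Thbd, had 603 CPM of Gnai1 (interval 542 to 669). The second, 44 cells led by Tnc and Cxcl14, had 164 CPM (124 to 213), and its 10 leading genes hold 2 genes of the fibroblast list and 1 of the PDGFRA-high list. Gna12 followed Gnai1, at 149 CPM in the first and 52.7 in the second. Gnao1 and Gna13 went the other way. Gnao1 had 15.1 CPM in the first cluster and 96.6 in the second, and Gna13, the other RhoA-coupled subunit, had 62.0 and 193 CPM. The order of Gnai1 held in each library: from duodenum through colon to rectum the first cluster had 293, 629.8 and 676 CPM, and the second had 202, 163 and 159.98. Gnao1 kept its order as well, with 20.2, 31.1 and 8.31 CPM in the first and 101, 69.7 and 100.5 in the second. Gna12 was equal in duodenum (101 CPM in both). Gna13 was apart in rectum (47.1 and 227 CPM) but not in duodenum (80.9 and 101 CPM), and had the other order in colon (85.5 and 46.5 CPM). In the second cluster these values rest on 4 cells in duodenum and 7 in colon. Genes of the marker list of the class went both ways between the clusters. F3 had 1064 and 495 CPM and Sox6 360.2 and 143. The growth factor Nrg1 had 31.8 and 264 CPM, Wnt5a 405 and 618, and Foxl1 70.4 and 96.6 (42 and 33 UMIs). Bmp5 (876 and 940.05 CPM) and Bmp7 (293 and 281) were close. Pdgfra itself, a gene of the fibroblast list, had 1407 CPM in the first cluster and 1857 in the second. The clusters were made from the same cells, with the G protein genes left out, so these differences are a description with no test.

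**Figure D4:**
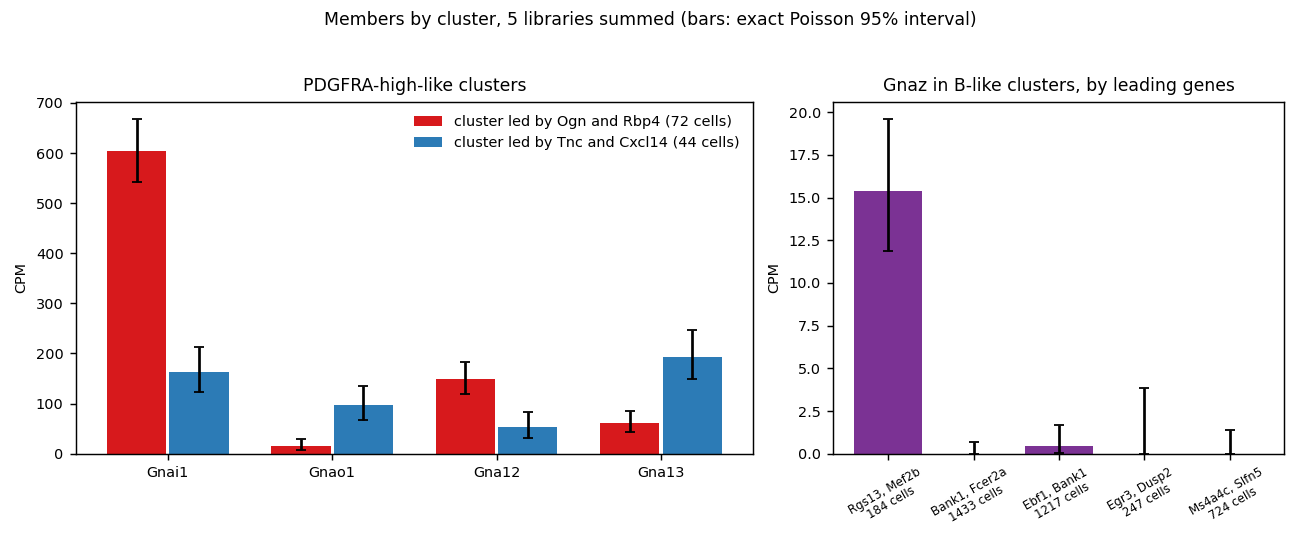
CPM with exact Poisson 95% intervals, 5 libraries summed. Left, Gnai1, Gnao1, Gna12 and Gna13 in the 2 PDGFRA-high-like clusters, with Gnai1 at 603 and 164 CPM; right, Gnaz in the 5 B-like clusters, with 15.4 CPM in the cluster led by Rgs13 and Mef2b.

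Detection per cell gave the same order. After each cell was thinned to 1000 UMIs, 27.6% of PDGFRA-high-like and 9.04% of stromal-like cells had a Gnai1 UMI, against 0.171% of epithelial-like cells and 0 of 6140 immune-like cells. Taken as 3 counts of the total, that 0 allows a share of cells with a UMI at this depth of up to 0.0489%, which limits no share of cells expressing the gene. The median depths before thinning were 8114.5, 8305, 31548.5 and 3764.5 UMIs, and 11 stromal-like, 227 epithelial-like and 162 immune-like cells were too shallow to be thinned. Without thinning the shares were 80.2%, 40.2%, 4.17% and 0.0476%. Immune-like cells serve as the background for free RNA here.

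Gnai1 was not evenly low in the epithelium. Crypt-like cells had 0 CPM in duodenum and jejunum, 0.142 in ileum, 3.13 in colon and 7.74 in rectum. Goblet-like cells had 0 CPM in the 3 small intestinal libraries, 1.69 in colon and 11.03 in rectum, and their clusters differed by segment, led by Zg16 and Tff3 in the small intestine, by Reg4 and Retnlb and by Plet1 and Ccn3 in colon, and by Sval1 and Mptx1 in rectum. By a rule of size, the lowest library on one side at least 2-fold above the highest on the other with at least 50 UMIs, 2 of 109 pairs of member and class or compartment passed, both Gnai1 and both higher in the large intestine. They were the epithelial-like compartment (2.46-fold) and crypt-like cells (5.07-fold). Of all genes with enough UMIs, 5.76% passed in that direction and 5.12% in the other in the epithelial-like compartment, and 3.64% and 2.42% in crypt-like cells. Small and large intestinal crypt-like cells lay in separate clusters, led by Olfm4 and Cps1 in the small intestine, Sult1a1 and Ces1g in colon, and Wfdc2 and Sycn in rectum. Segment, library and cluster cannot be told apart. Absorptive-like cells had at most 0.33 CPM of Gnai1 in any library.

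Gnai2, the Gi alpha gene of most blood cells, was higher in stromal-like and immune-like than in epithelial-like cells. Epithelial-like cells had 122, 115, 137, 180.3 and 169.8 CPM from duodenum to rectum, stromal-like cells 489.6, 332, 443, 456 and 483 CPM, and immune-like cells 529, 528, 531, 495 and 350.1 CPM. No epithelial-like library reached the lowest of the others. Stromal-like against epithelial-like cells gave a log2 fold of 1.16 (SE 0.15, edgeR adjusted p = 4.2e-05), and epithelial-like against immune-like cells gave -1.93 (SE 0.16, edgeR adjusted p = 4.4e-07). Stromal-like cells were called lower than immune-like cells (log2 fold -0.78, SE 0.15, edgeR adjusted p = 0.0011). That call was lost when library totals alone set the scale (log2 fold -0.15), and the mean levels were 441 ± 63.7 and 487 ± 77.8 CPM. Lymphatic endothelial-like cells had more Gnai2 than any of these, from 979 to 1410.0 CPM.

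Among immune-like cells Gnai2 was highest in dendritic-like cells, at 858, 835, 909, 794 and 901 CPM from duodenum to rectum. Macrophage-like cells had 479, 518, 514 CPM in the small intestine and 777 and 783 CPM in the large intestine, so that the 2 sides did not overlap. Most small intestinal macrophage-like cells lay in 3 clusters led by Pla2g2d, Dnase1l3 and Csf1r, and most large intestinal ones in the clusters led by Apoe and by Retnla. Gnai2 led in all 5 macrophage-like clusters, with 31.1% to 47.1%. It led in 6 of 7 dendritic-like clusters, with 41.9% to 58.1%. The exception was the 17 cells led by Siglech, a plasmacytoid marker, where Gnas had 47.8% and Gnai2 31.3%. One dendritic-like cluster of 66 cells had the neutrophil genes S100a8 and S100a9 among its leading genes, so the class is not compared between segments. Myeloid cells (macrophage-like and dendritic-like together) averaged 772 ± 52.9 CPM against 517 ± 69.0 in B-like cells, a log2 fold of 0.67 (SE 0.13, edgeR adjusted p = 2.8e-04), in 5 of 5 libraries. B-like cells had 547, 499, 545, 588 and 408 CPM from duodenum to rectum. Macrophage-like cells alone were thus below B-like cells in duodenum and ileum, while dendritic-like cells were above them in every library.

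**Figure D5:**
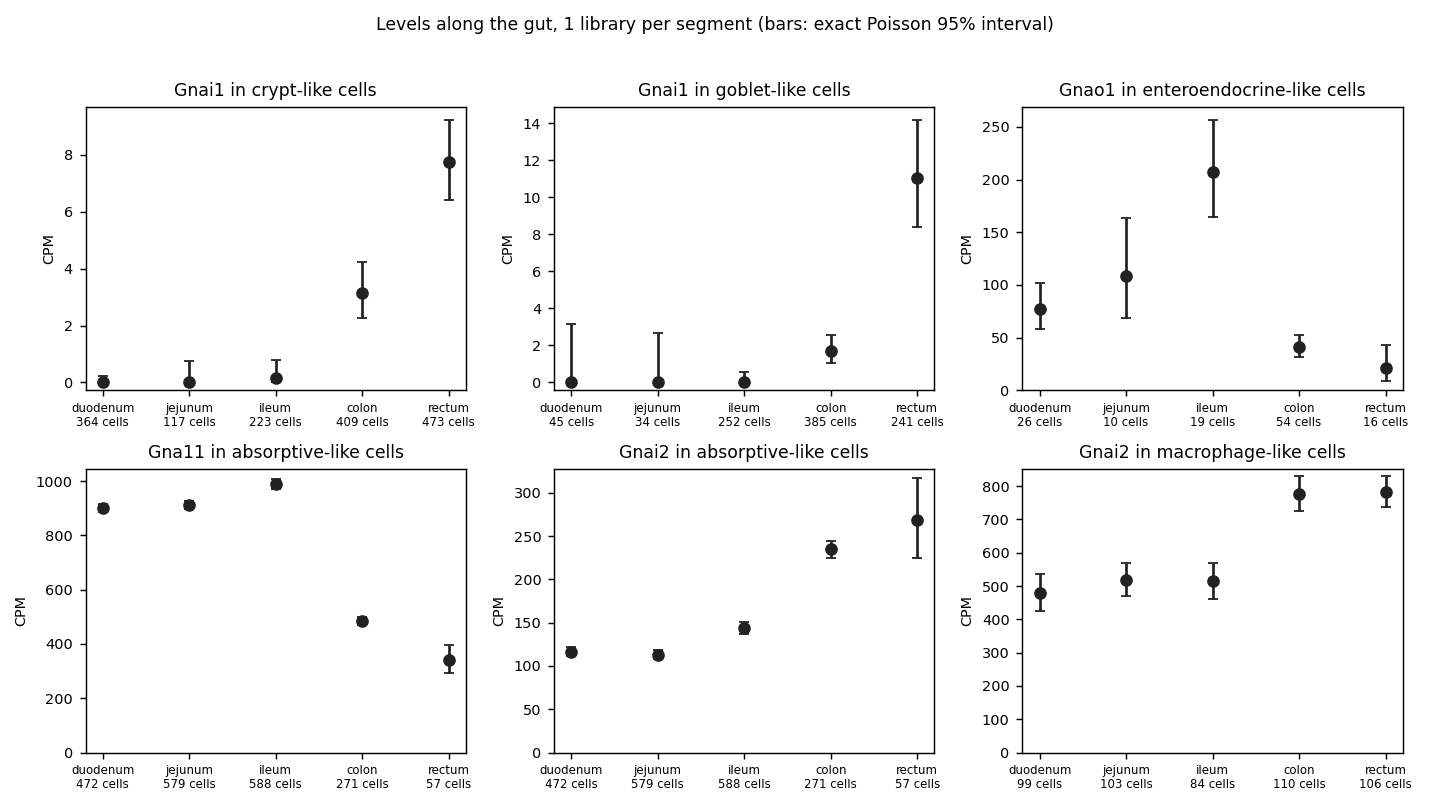
CPM with exact Poisson 95% intervals in each library, from duodenum to rectum, for Gnai1 in crypt-like and goblet-like cells, Gnao1 in enteroendocrine-like cells, Gna11 and Gnai2 in absorptive-like cells and Gnai2 in macrophage-like cells. Gna11 in absorptive-like cells is 902 to 990.5 CPM in the small intestine and 484 and 341 CPM in colon and rectum.

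Gnai3, the third Gi alpha gene, was not called between stromal-like and epithelial-like cells (log2 fold -0.48, edgeR adjusted p = 0.052). Its means were 100.7 ± 15.7 CPM in stromal-like, 102.0 ± 15.6 in epithelial-like and 45.5 ± 4.78 in immune-like cells (SD, n = 5). The epithelial-like level was higher than the immune-like level by a log2 fold of 0.99 (SE 0.19, edgeR adjusted p = 5.5e-04). Stromal-like against immune-like cells gave 0.52 (SE 0.19, edgeR adjusted p = 0.041), a call lost without duodenum (0.52), ileum (0.49) or colon (0.54), with each library clustered on its own (0.47), with no doublets removed (0.49) and with no filter on low counts (0.50). Among the 3 Gi alpha genes alone, Gnai1 took 0.779% of epithelial-like UMIs, Gnai2 58.0% and Gnai3 41.2%.

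Gnao1, which encodes Go alpha, an alpha subunit abundant in neurons, was highest, summed over libraries, in enteroendocrine-like cells. These had 77.6 CPM in duodenum, 109 in jejunum, 207 in ileum, 41.1 in colon and 21.7 in rectum, from 10 to 54 cells per library. In rectum this was below PDGFRA-high-like (47.6 CPM), smooth muscle-like (34.3), fibroblast-like (27.2) and trophocyte-like cells (22.3). Absorptive-like cells had at most 0.35 CPM in any library, and the ranges were far apart. The log2 fold was 8.77 (SE 0.91, edgeR adjusted p = 1.4e-06), and leaving out 1 library at a time gave 8.15 to 10.55. Its size depends on few molecules, since the absorptive-like level rests on 7 Gnao1 UMIs. In stromal-like cells Gnao1 had 23.4, 32.4, 12.5, 17.7 and 30.6 CPM, with 23.3 ± 8.42 against 1.69 ± 1.11 CPM in epithelial-like cells as a whole. That gave a log2 fold of 3.45 (SE 0.64, edgeR adjusted p = 5.6e-04). The list of 7 enteric neuron markers summed to 0 to 124 CPM in stromal-like and to 1.36 to 7.24 CPM in epithelial-like cells, and the glia list to 0 to 60.9 CPM in stromal-like cells, and their part in Gnao1 was not tested. Endothelial-like cells had no Gnao1 UMI. After thinning to 1000 UMIs, 8.20% of enteroendocrine-like cells had a Gnao1 UMI against 0.0531% of absorptive-like cells (65.6% and 0.356% without thinning, at median depths of 17034 and 30524 UMIs).

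Gnaz, a Gi-class subunit that resists pertussis toxin, was the scarcest member in stromal-like and epithelial-like cells, at 3.68 and 0.51 CPM, and had 2.42 CPM in immune-like cells. Enteroendocrine-like cells had 16.1, 18.9, 27.8, 10.1 and 24.4 CPM from duodenum to rectum. Against absorptive-like cells that gave a log2 fold of 7.18 (SE 0.84, edgeR adjusted p = 4.0e-06). The absorptive-like level rests on 3 Gnaz UMIs, so the size of that fold depends on few molecules. Within the B-like class Gnaz fell almost wholly in 1 cluster. Of 67 Gnaz UMIs in B-like cells, 65 (97%) fell in a cluster of 184 cells led by Rgs13, Mef2b and Mybl1, genes known from germinal center B cells. That cluster had 28.5, 16.0, 18.4, 12.6 and 10.5 CPM from duodenum to rectum, and the other 4 B-like clusters had 0 to 0.458 CPM. Plasma-like cells had 1.22 to 4.09 CPM. The G protein alpha, beta and gamma genes had been left out of the clustering, but Rgs13 and other genes of the cells had not, so the cluster's concentration of Gnaz is a description.

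Epithelial-like classes were each set against absorptive-like cells, which all 3 contrasts share. Crypt-like cells had 4 of 10 members called, all lower, where 60.9% of the 12386 genes tested were called (31.7% higher and 29.2% lower). Goblet-like cells had 5 of 10, 2 higher and 3 lower, where 55.4% of genes were called (31.3% higher and 24.1% lower). Enteroendocrine-like cells had 7 of 10, 4 higher and 3 lower, where 55.8% of genes were called (29.6% higher and 26.2% lower). Gna11, Gna13 and Gnai3 were the 3 members called lower in each contrast, and Gnai2 was the fourth in crypt-like cells (log2 fold -0.62, edgeR adjusted p = 0.015). The Gnai2 call was lost without ileum (-0.61) or jejunum (-0.59) and with library totals (-0.26), and the fold was 0.02 when cells above 10% mitochondrial UMIs were left out. Gnai3 in enteroendocrine-like cells also hung on the scaling: its log2 fold was -0.67 (edgeR adjusted p = 0.0016) with TMM factors and 0.03 with library totals, at 122 ± 19.5 against 120.4 ± 28.3 CPM. Enteroendocrine-like cells were higher in Gnao1, Gnaz, Gnai1 and Gna12. Gnai1 there had 2.93, 18.9, 50.5, 5.06 and 2.71 CPM from duodenum to rectum, a log2 fold of 6.12 (SE 1.47, edgeR adjusted p = 0.0022). It was 4.80 without ileum, and the call was lost at 20 or more cells per sum (3.72) and at 10% mitochondrial UMIs (5.31). The absorptive-like level rests on 5 Gnai1 UMIs, so the size of that fold depends on few molecules.

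Gnas, the stimulatory subunit that raises cyclic AMP, had UMIs in every class. Among groups of at least 10 cells it ranged from 103 CPM in Paneth-like cells of ileum to 1723 CPM in lymphatic endothelial-like cells of rectum. All 10 members together had 178 CPM in these Paneth-like cells, beside 917 in crypt-like and 978 in goblet-like cells of ileum. Gnas held 58.1% of the members' UMIs there, so its low CPM was not particular to Gnas. Stromal-like cells had 923, 1182, 1007, 847 and 942 CPM from duodenum to rectum, and epithelial-like cells had 399.8, 375, 419, 528 and 743 CPM. The ranges did not overlap, and the log2 fold was 0.56 (SE 0.15, edgeR adjusted p = 0.0060). Immune-like cells, at 513 ± 28.4 CPM, were not called against epithelial-like (log2 fold -0.28, edgeR adjusted p = 0.11) or stromal-like cells (0.28, edgeR adjusted p = 0.13 for stromal-like minus immune-like). In CPM, stromal-like cells averaged 980 ± 127 and were above immune-like cells in 5 of 5 libraries. The fold of 0.28 rests on TMM factors. With these the median log2 fold of all genes in that contrast was -0.19, and with library totals it was 0.42. In crypt-like cells Gnas was 421, 383, 409, 485.5 and 743 CPM, highest in rectum, and goblet-like cells of rectum were also the highest of their class with 745 CPM. The Gnas locus has several transcripts from 4 RefSeq starts that share the symbol, and the UMIs do not separate them. The symbol spans chromosome 2, 174284320 to 174346744.

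Among T-like cells Gnas differed between clusters. The cluster led by Gzma and Gzmb, 256 cells of which 253 were small intestinal, had 865 CPM, and the cluster led by Trbc2 and Trac had 559 CPM. In duodenum, jejunum and ileum the first had 864, 839 and 929 CPM and the second 579, 538 and 563. In colon and rectum the second had 626 and 483 CPM. T-like cells of rectum, all from the second cluster, were those in which Gnai2 led.

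Gna11, which activates phospholipase C beta (chromosome 10, 81528724 to 81545162), had 591, 728, 474, 251 and 128 CPM in epithelial-like cells from duodenum to rectum. Stromal-like cells had 119, 48.6, 117, 96.7 and 109.8 CPM, and immune-like cells had 10.7 to 26.3 CPM. Epithelial-like cells were the highest in every library, by a wide margin in the small intestine and by little in rectum. The log2 fold was -2.33 for stromal-like minus epithelial-like (SE 0.44, edgeR adjusted p = 6.3e-04) and 4.32 for epithelial-like minus immune-like cells (SE 0.46, edgeR adjusted p = 4.8e-06). The 7 epithelial markers summed to 155 to 487 CPM in immune-like cells against 7829 to 11216 CPM in epithelial-like cells, and the part of stray epithelial transcripts in the immune-like Gna11 level was not tested. After thinning to 1000 UMIs, 55.6% of absorptive-like and 2.07% of immune-like cells had a Gna11 UMI (95.5% and 11.1% without thinning).

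The absorptive-like cells carried most of this. They had 902, 912 and 990.5 CPM of Gna11 in duodenum, jejunum and ileum, and 484 and 341 CPM in colon and rectum. Every small intestinal library was above both large intestinal ones, but by less than 2-fold at the nearest pair, so the rule of size was not met. The clusters differed by segment, led by Reg1 and by Cyp3a11 in duodenum and jejunum, Plb1 and Reg3g in ileum, 1810065E05Rik in colon and Saa1 in rectum. Crypt-like cells had 258, 252, 187, 181 and 136 CPM, below absorptive-like cells in 5 of 5 libraries (log2 fold -2.21, SE 0.25, edgeR adjusted p = 1.5e-06). Goblet-like cells (-2.73, SE 0.25) and enteroendocrine-like cells (-2.67, SE 0.26) were lower by about the same size, each in 5 of 5 libraries (edgeR adjusted p = 4.7e-07 and 6.3e-07). An unnamed epithelial class of 212 cells, from duodenum and jejunum alone, had 907 and 903 CPM. In the small intestine Gnas was lower than Gna11 in absorptive-like cells, and Gnai2 ran the other way along the gut, with 116, 113 and 144 CPM in the small and 235 and 268 CPM in the large intestine.

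Gnaq, the close relative of Gna11, did not share its pattern. It had 36.7 ± 4.41 CPM in epithelial-like, 34.7 ± 8.58 in immune-like and 76.6 ± 22.9 in stromal-like cells (SD, n = 5). Stromal-like cells were called higher than epithelial-like cells (log2 fold 0.52, edgeR adjusted p = 0.013) and than immune-like cells (0.45, edgeR adjusted p = 0.030). The first call was lost without duodenum (0.49) or colon (0.54) and with no filter on low counts (0.43). The second was lost without jejunum (0.42), ileum (0.38) or colon (0.45), at Leiden resolution 0.5 (0.38), with each library clustered on its own (0.37) and with no filter (0.44). Goblet-like cells had more Gnaq than absorptive-like cells, 53.9 ± 9.09 against 32.2 ± 6.58 CPM (log2 fold 0.59, edgeR adjusted p = 0.011). That call was lost without duodenum (0.44) or ileum (0.54), at 1000 or more genes per cell (0.44), at 20 or more cells per sum (0.47), with every barcode kept (0.45) and with no filter on low counts (0.45). Myeloid cells had 79.8 ± 6.01 CPM against 21.4 ± 5.21 in B-like cells, a log2 fold of 1.99 (SE 0.18, edgeR adjusted p = 1.9e-08), in 5 of 5 libraries.

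The RhoA-coupled pair split by compartment. Gna12 had 7.38 ± 2.43 CPM in epithelial-like, 22.3 ± 4.43 in immune-like and 65.0 ± 15.4 in stromal-like cells. The stromal-like range, 49.5 to 89.1 CPM, was above both others. The log2 fold was 2.64 against epithelial-like (SE 0.20, edgeR adjusted p = 4.0e-07) and 0.85 against immune-like cells (SE 0.19, edgeR adjusted p = 0.0025). Among immune-like classes Gna12 was highest in macrophages: macrophage-like cells had 149, 135, 115, 109 and 135 CPM from duodenum to rectum, while dendritic-like cells had 10.4 to 23.3 and plasma-like cells at most 5.99 CPM. Myeloid against B-like cells gave a log2 fold of 2.51 (SE 0.24, edgeR adjusted p = 4.6e-08). In the epithelium Gna12 was higher in goblet-like (log2 fold 1.03, edgeR adjusted p = 0.0082) and enteroendocrine-like cells (1.45, edgeR adjusted p = 0.0021) than in absorptive-like cells, at 10.7 ± 3.55 and 20.9 ± 10.6 against 4.51 ± 1.66 CPM. The goblet-like call was lost at 10% mitochondrial UMIs (log2 fold 1.10).

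Gna13, by contrast, was highest in immune-like cells. Immune-like cells had 143 ± 31.7 CPM against 81.6 ± 17.7 in epithelial-like and 95.5 ± 13.54 in stromal-like cells, and were higher in 5 of 5 libraries than either. The log2 fold was -1.20 for stromal-like minus immune-like (SE 0.19, edgeR adjusted p = 1.9e-04) and -0.97 for epithelial-like minus immune-like cells (SE 0.18, edgeR adjusted p = 4.4e-04). T-like cells had 252, 271, 284, 298 and 331 CPM from duodenum to rectum, above B-like cells (156, 169, 172, 120.0 and 143 CPM) in every library. Absorptive-like cells had 126 ± 27.8 CPM, and crypt-like (log2 fold -1.31), goblet-like (-1.36) and enteroendocrine-like cells (-1.30) were lower, with edgeR adjusted p of 1.0e-05, 1.2e-05 and 3.1e-05.

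Immune-like classes were each set against B-like cells, which these 3 contrasts share. Of the members, 7 passed the filter, all but Gnai1, Gnao1 and Gnaz. T-like cells had 1 of 7 called, Gna13 higher (log2 fold 0.67, SE 0.15, edgeR adjusted p = 0.0017), where 37.6% of the 10232 genes tested were called (19.8% higher and 17.8% lower). Myeloid cells had 4 of 7, Gnai2, Gnaq, Gna12 and Gna13, all higher, where 56.9% of genes were called (30.4% higher and 26.5% lower). Gna13 was the weakest of these (log2 fold 0.47, edgeR adjusted p = 0.010) and its call was lost without colon (0.38), at 1000 or more genes per cell (0.34), at 10% mitochondrial UMIs (0.34), with each library clustered on its own (0.37), with every barcode kept (0.31) and with library totals (0.39). Plasma-like cells had 3 of 7 called, where 51.8% of genes were called (26.7% higher and 25.2% lower): Gnas higher, and Gnai2 (log2 fold -0.56, edgeR adjusted p = 0.0021) and Gna13 (-1.02, edgeR adjusted p = 3.7e-05) lower. The Gnas direction turned with the scaling. With TMM factors its log2 fold was 0.84 (SE 0.13, edgeR adjusted p = 3.4e-05), with library totals it was -0.50, and the CPM was lower in plasma-like cells, 409 ± 68.1 against 578 ± 45.0, in 5 of 5 libraries. When mitochondrial, immunoglobulin and defensin genes were left out of the totals, a choice made after seeing the data, plasma-like cells had 1258 and B-like cells 639 CPM of Gnas.

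The partners of the alpha subunits were read from lists of genes chosen by family. Apart from the G alpha, beta and gamma genes, these genes took part in the clustering, so their class counts are descriptions. Between stromal-like and epithelial-like cells, 2 of 4 G beta genes tested were higher and 1 lower, and 5 of 8 G gamma genes were higher and 2 lower, with median log2 folds of 1.09 and 2.35 beside -0.14 over all genes. The shares called were 75.0% and 87.5%, beside 60.6% of all genes (27.7% higher and 32.8% lower). Gnb4 had 110.0 ± 50.4 CPM in stromal-like and 0.165 ± 0.132 in epithelial-like cells, a log2 fold of 8.92 (SE 0.62, edgeR adjusted p = 2.3e-07). By class Gnb4 was highest where Gnai1 was, at 266 CPM in PDGFRA-high-like cells. Gnb1 had the opposite direction (log2 fold -0.78, edgeR adjusted p = 0.024), with 506 CPM in absorptive-like cells. Gng11 had 170.1 ± 36.2 CPM in stromal-like and 2.87 ± 4.65 in immune-like cells (log2 fold 6.13, SE 0.73, edgeR adjusted p = 2.6e-05), and 1929 CPM in lymphatic endothelial-like cells. Gng2 had 112 ± 16.7 CPM in immune-like against 0.963 ± 0.265 in epithelial-like cells, and 95.5 CPM in lymphatic endothelial-like cells.

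Among adenylyl cyclases, the targets of Gi and Gs, 3 of 6 tested were higher and 1 lower in stromal-like than in epithelial-like cells, 66.7% called beside 60.6% of all genes. Adcy7 (log2 fold 6.43), Adcy5 (6.10) and Adcy3 (4.79) were higher, and Adcy6 (-2.01) was lower, with 40.1 ± 7.06 CPM in epithelial-like cells. Adcy7 was also the immune cyclase, at 54.8 ± 16.7 CPM against 0.284 ± 0.128 in epithelial-like cells. Among phospholipase C beta genes, the targets of Gq/11, Plcb3 had 127 ± 47.0 CPM in epithelial-like, 19.0 ± 8.82 in stromal-like and 7.94 ± 3.05 in immune-like cells, and its log2 fold of -2.80 for stromal-like minus epithelial-like cells (SE 0.32, edgeR adjusted p = 1.4e-05) had the direction of Gna11. Plcb2 was an immune gene, 26.5 ± 16.1 against 0.522 ± 0.312 CPM in epithelial-like cells, and had 102 CPM in tuft-like cells. Of the RGS-type exchange factors that G12/13 activates, Arhgef12 was higher in stromal-like than in epithelial-like (log2 fold 1.64) and immune-like cells (2.27), and Arhgef1 was highest in immune-like cells, at 137 ± 48.3 CPM.

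The RGS genes, which switch Gi and Gq subunits off, gave 10 of 14 tested higher and 1 lower in stromal-like than in epithelial-like cells, and 9 of 14 lower and 1 higher in epithelial-like than in immune-like cells. The shares called were 78.6% and 71.4%, beside 60.6% and 63.3% of all genes. Rgs5 (log2 fold 9.37) and Rgs6 (9.34) led the first contrast and Rgs10 followed with 298 ± 99.2 against 1.96 ± 3.19 CPM. Because Rgs5 is in the pericyte marker list used to name stromal-like clusters, its place there was partly set by the naming. Rgs1 had 770.2 ± 256 CPM in immune-like and 3.38 ± 2.33 in epithelial-like cells (log2 fold -8.13, SE 0.55, edgeR adjusted p = 1.2e-07), with 2728 CPM in T-like cells. Rgs13 had 571 CPM in tuft-like cells, which also had the taste-type subunit genes Gnat3 (34.7 CPM) and Gng13 (143 CPM). Of the G alpha modulators, Gpsm3 was an immune gene (87.1 ± 22.2 against 0.427 ± 0.229 CPM in epithelial-like cells) and Gpsm2 an epithelial one (30.4 ± 6.93 against 2.29 ± 1.20 CPM in immune-like cells). Of the 6 other G alpha genes, 2 were tested between compartments, and Gna15, the promiscuous Gq relative of blood cells, had 11.9 ± 1.67 CPM in immune-like and 0.0926 ± 0.0452 in epithelial-like cells. Gna14 had 19.7 CPM in goblet-like cells, its highest class.

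Genes with the most similar levels were ranked over 60 class-by-library sums of at least 20 cells by Pearson's r of log2(CPM + 5), among 13236 genes. The sums share libraries and depth, and r is given as a description. Gnai1 was closest to Bmp5 (0.955), Ccdc3 (0.946), Daam2 (0.938), Fendrr (0.937) and Tenm3 (0.934). Bmp5 is also a marker used to name PDGFRA-high-like cells. Gna11 was closest to Il17rc (0.948), Cmbl (0.934) and Erbb2 (0.925), Gnao1 to Runx1t1 (0.938), Gna12 to Rgl1 (0.919), and Gnai2 to Wnk1 (0.915). Gnai3 was closest to Stk16 (0.899). Gnas (Ccdc85b, 0.852), Gnaq (Sdcbp, 0.824) and Gnaz (Cacna2d1, 0.652) had weaker neighbours.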

How the data were processed

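For each of the 5 libraries the authors deposited a matrix of whole UMI counts, not normalized, with 32285 genes, per the file headers. Those headers name cellranger 7.2.0; per the submitters' processing notes the tools were Cell Ranger 4.0.0 and Seurat, on mm10. How reads shared by close paralogs were counted is not given in the sources used here. The members and lists were chosen with earlier results of these data known.

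A barcode needed 300 detected genes and no more than 20% of UMIs from mitochondrial genes, which 12255 of 16535 met. Doublets were scored with Scrublet. Its own threshold marked only 27 cells, and the 333 top-scoring cells were dropped, a rate of 0.8% for every 1000 barcodes deposited. The deposited libraries held 41953568 to 65546664 UMIs. Cells were clustered in Scanpy 1.11.5 (2000 variable genes, 30 principal components, 15 neighbours, Leiden resolution 1.0) with G alpha, beta and gamma genes left out. Stromal and myeloid clusters of at least 50 cells were divided again at 0.3. A name needed 3 markers raised 1.5-fold, thresholds set with the data in hand, and the tuft-like class was named by cells with at least 4 markers.

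UMIs were summed per class and library (at least 10 cells) and tested with edgeR 4.0.16 (quasi-likelihood test, TMM, filterByExpr, library as a block, Benjamini-Hochberg over all genes tested, threshold 0.05). The library is the block because every class of a library comes from the same cell suspension. DESeq2 1.42.0 was an alternative. All 10 members are named, and from the other lists up to 4 genes per contrast between compartments were eligible by size of fold. Class levels of list genes, the clusters within a class and the genes shown beside them were chosen after their values were seen. The fit was also run on simulated counts with few changed genes and no difference between libraries other than depth. In the real contrasts a larger part of the genes was called, so that run cannot vouch for them. The alternatives changed barcode filters, doublets, clustering, scaling, the filter on low counts, thinning and the libraries included.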

Additional observations from a re-analysis of the deposited data

Results flagged for a closer look

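Gnai2 in goblet-like minus absorptive-like cells had log2 ratios of 0.412 in duodenum, 0.397 in jejunum and 0.043 in ileum, but -0.666 in colon and -0.814 in rectum. The small intestinal libraries thus all moved one way and the large intestinal ones the other, and the difference between the 2 sides was not tested. Goblet-like cells had 146 to 156 CPM in every library, while absorptive-like cells had 113 to 144 CPM in the small and 235 and 268 CPM in the large intestine. Both classes lay in different clusters by segment. Goblet-like clusters were led by Zg16 and Tff3 in the small intestine, by Reg4 and Retnlb and by Plet1 and Ccn3 in colon, and by Sval1 and Mptx1 in rectum. Absorptive-like clusters were led by Reg1 and by Cyp3a11 in duodenum and jejunum, Plb1 and Reg3g in ileum, 1810065E05Rik in colon and Saa1 in rectum.

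Gnas in T-like minus B-like cells had log2 ratios of 0.335 in duodenum, 0.354 in jejunum and 0.234 in ileum, and -0.033 in colon and -0.216 in rectum. The difference between the 2 sides was not tested. Of 256 T-like cells in the cluster led by Gzma and Gzmb, which had 865 CPM of Gnas, 253 were small intestinal. B-like cells also lay in different clusters. The cluster led by Ighd and Bank1 held 48.6%, 45.7% and 45.4% of them in duodenum, jejunum and ileum, and that led by Mcpt1 and Ebf1 held 77.0% in colon and 69.4% in rectum. Of 724 B-like cells in the cluster led by Ms4a4c and Slfn5, 5 came from colon and 0 from rectum.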

How the results depend on the processing

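Over 50 called folds of the members and all alternatives, 862 of 900 values kept their direction and side of the threshold, 35 kept the direction alone, and 3 reversed: Gnai2 in crypt-like minus absorptive-like cells (0.023 at most 10% mitochondrial UMIs), Gnai3 in enteroendocrine-like minus absorptive-like cells (0.0318 with library totals) and Gnas in plasma-like minus B-like cells (-0.50 with library totals). The cause was not tested. The number of members called moved to 7 for plasma-like minus B-like cells with library totals, to 2 for T-like minus B-like cells with DESeq2, at most 10% mitochondrial UMIs, library totals or no filter on low counts, and to 1 for PDGFRA-high-like minus other fibroblasts with DESeq2. Without the library as a block (no replicate block), the pairing by library changed counts to 9 for stromal-like minus epithelial-like, 6 for goblet-like and 8 for enteroendocrine-like minus absorptive-like cells, and left 8, 8, 4, 3, 1, 4 and 2 in the other contrasts. Leaving out 1 library at a time gave 7 to 9 (stromal-like minus epithelial-like), 6 to 8 (stromal-like minus immune-like), 8 to 8 (epithelial-like minus immune-like), 3 to 6 (crypt-like), 4 to 6 (goblet-like), 7 to 9 (enteroendocrine-like), 3 to 4 (plasma-like), 1 to 1 (T-like), 3 to 4 (myeloid) and 2 to 2 (PDGFRA-high-like).

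The share of Gnai2 in dendritic-like cells was 49.4% with every barcode kept, 51.4% with each library clustered on its own and 49.7% with G protein genes kept in clustering, and that of Gnas in plasma-like cells was 62.7% with each library on its own. Without 1 library, the shares ranged from 48.5% to 54.1% for Gna11 in absorptive-like cells, from 43.6% to 51.4% for Gnas in crypt-like, 51.2% to 56.7% in goblet-like, 64.3% to 65.7% in plasma-like, 41.3% to 43.1% in B-like, 39.1% to 43.7% in T-like, 47.9% to 49.4% in fibroblast-like and 36.9% to 38.3% in PDGFRA-high-like cells, from 50.3% to 50.7% for Gnai2 in dendritic-like and 41.1% to 44.04% in macrophage-like cells, from 3.51% to 5.80% for Gnao1 in enteroendocrine-like, 16.4% to 18.0% for Gnai1 in PDGFRA-high-like and 8.003% to 8.99% for Gna12 in macrophage-like cells. Thinning to 2000 UMIs in place of 1000 gave a Gnai1 UMI in 19.6% of stromal-like and 51.3% of PDGFRA-high-like cells and a Gnao1 UMI in 18.1% of enteroendocrine-like cells, and no thinning gave 40.2%, 80.2% and 65.6%, since deeper cells show more genes. The rule of size passed 1 pair at 4-fold, 1 at 200 UMIs and 4 with every barcode kept, of which 2 were higher in the small intestine. The leading member changed in 0 to 2 of the class-by-library groups under the alternatives run.

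With library totals in place of TMM, the share of calls that were higher went from 45.8% to 62.8% (stromal-like minus epithelial-like), 43.9% to 71.2% (stromal-like minus immune-like), 52.1% to 69.6% (crypt-like), 56.5% to 66.6% (goblet-like), 53.0% to 80.2% (enteroendocrine-like), 51.4% to 7.86% (plasma-like), 52.5% to 72.8% (T-like) and 40.3% to 52.8% (PDGFRA-high-like), and the median log2 fold of all genes to 0.30, 0.42, 0.46, 0.37, 0.80, -1.35, 0.21 and 0.13. Levels per kilobase of transcript were planned and not run, since no transcript lengths were used here. Scarce members limit the rest: Gnai1 rests on 3 UMIs in immune-like cells and PDGFRA-high-like cells number 1 in ileum and 0 in jejunum.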
